A study of Mus musculus with 7 samples.

Results

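Red cell development rests on a small set of transcription regulators and on the receptor for erythropoietin (EPO), the hormone that drives it, and 10 of these genes were described in knee joint tissue of WT and *Trpc1*-/- mice. They were taken by name from the deposited count table: *Gata1*, *Gata2*, *Klf1*, *Tal1*, *Nfe2*, *Zfpm1*, *Gfi1b*, *Lmo2*, *Epor*, and *Bcl11a*. Each was found once among 55401 genes, and all 10 were among the 16429 genes that passed the filter on low counts. The tissue came from male C57BL/6J mice whose right knee had undergone destabilization of the medial meniscus (DMM), an operation that leads to osteoarthritis, at 10 weeks of age, 2 weeks before collection. Each sample pooled 2 to 3 mice, and by the labels 4 samples were WT and 3 were *Trpc1*-/-. TRPC1 is a subunit of calcium-permeable channels, and the mutant allele, Trpc1tm1Lbi, lacks an exon that encodes part of the transmembrane region. The labels name articular cartilage, whereas the methods of the study also list subchondral bone, which borders on marrow.

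Red cells are made in the marrow from stem and progenitor cells, in which GATA2 is active and is then replaced on many genes by GATA1 and its cofactor ZFPM1 (FOG1). TAL1 and LMO2 join GATA1 in a complex that binds E-box and GATA motifs, KLF1 turns on the adult beta-globin gene and much of the red cell program, and BCL11A represses embryonic and fetal globin genes. NFE2 and GFI1B act in red cells and platelets alike, and EPOR signals through JAK2 and STAT5 for survival of the progenitors.

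Levels are given as CPM, counts scaled to a fixed library total, scaled with TMM factors, which correct for differences in composition between libraries. The totals were 52142451, 99831099, 116815517, and 75284143 counts for WT replicates 1 to 4, and those of *Trpc1*-/- replicates 1 to 3 were 118254070, 94972137, and 106517535 counts. A floor of 3 counts corresponded to 0.0244 to 0.0632 CPM. *Trpc1*, the targeted gene, stood at 4.83, 4.55, 4.77, and 4.33 CPM in the WT samples and at 3.35, 3.79, and 3.04 CPM in the *Trpc1*-/- samples. The genotypes did not overlap, and the log2 fold change of *Trpc1*-/- over WT (logFC ± SE) was −0.44 ± 0.13 (adjusted P = 0.407, edgeR quasi-likelihood; 0.05001, DESeq2). The count covers the whole gene and does not isolate the missing exon, so it is only a partial check of the labels.

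WT replicate 1 stood apart from the other samples. It had the smallest total and the highest share of *mt-Rnr2*, a mitochondrial ribosomal RNA, at 19.6%, compared with 12.3% to 15.4% elsewhere. Markers of neutrophils, which are made in marrow, summed to 5505, 13800, 15822, and 17463 CPM in WT and 16116, 12893, and 16905 CPM in *Trpc1*-/- samples over 9 genes, with *S100a9* the most abundant, so that WT replicate 1 was below all other samples. The logFC of each of the 10 genes is therefore given with and without this sample, as are some counts of the gene lists.

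Cartilage, bone, and red cells all left their transcripts in the tissue. The 9 chondrocyte markers were all measured, with *Col2a1*, the main collagen of cartilage, the most abundant, and summed to 5605, 5434, 5372, and 5229 CPM in WT replicates 1 to 4 and 2983, 5464, and 3275 CPM in *Trpc1*-/- replicates 1 to 3. The 8 markers of osteoblasts and osteocytes, led by *Col1a1*, the main collagen of bone, summed to 13713, 9883, 8649, and 7551 CPM in WT and 5916, 10239, and 6077 CPM in *Trpc1*-/- samples. In both lists, *Trpc1*-/- replicates 1 and 3 were below every other sample, and *Trpc1*-/- replicate 2 was within the WT range. The 4 globin genes measured, led by *Hbb-bs*, summed to 16788, 29872, 33584, and 26932 CPM in WT and 42802, 38822, and 53955 CPM in *Trpc1*-/- samples, and each *Trpc1*-/- sample was above each WT sample. In bulk samples, fewer cells of a type and less RNA per cell cannot be told apart.

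Across all genes, edgeR and limma-voom called none of the 10 genes and DESeq2 called *Tal1*, and the 3 of these with the lowest P values in edgeR were all higher in *Trpc1*-/- samples. The quasi-likelihood test of edgeR called 0 of the 10 genes at an adjusted P under 0.05, and 0% of the 16429 genes tested. At an unadjusted P under 0.05 there were 3 genes, *Tal1*, *Lmo2*, and *Klf1*, all higher in *Trpc1*-/- samples, whereas of all tested genes 10.0% passed in either direction and 4.51% in this direction. This count was 1 without *Trpc1*-/- replicate 1, 1 without *Trpc1*-/- replicate 3, and 2 without WT replicate 1. The 10.0% and 4.51% are from the fit of all 7 samples, and the shares in the other fits are not given here. DESeq2 called 1 gene, *Tal1* (1.79% of all tested genes), and limma-voom called 0. The genotypes did not overlap for 2 genes, *Tal1* and *Lmo2*, both higher in *Trpc1*-/- samples, which held for 7.15% of all tested genes. Without *Trpc1*-/- replicate 2, 5 of the 10 genes, and 15.0% of all tested genes, had every *Trpc1*-/- sample above every WT sample. The logFC was above 0 for 10 of 10 genes (48.1% of all tested genes), but that of *Bcl11a* was below 0 with upper quartile normalization, and 8 to 10 of the genes were above 0 with each sample left out in turn. Its median was 0.24 over the 10 genes and −0.0088 over all tested genes, and over the 10 genes it was 0.19 without WT replicate 1 and 0.11 without *Trpc1*-/- replicate 1.

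**Figure D1:**
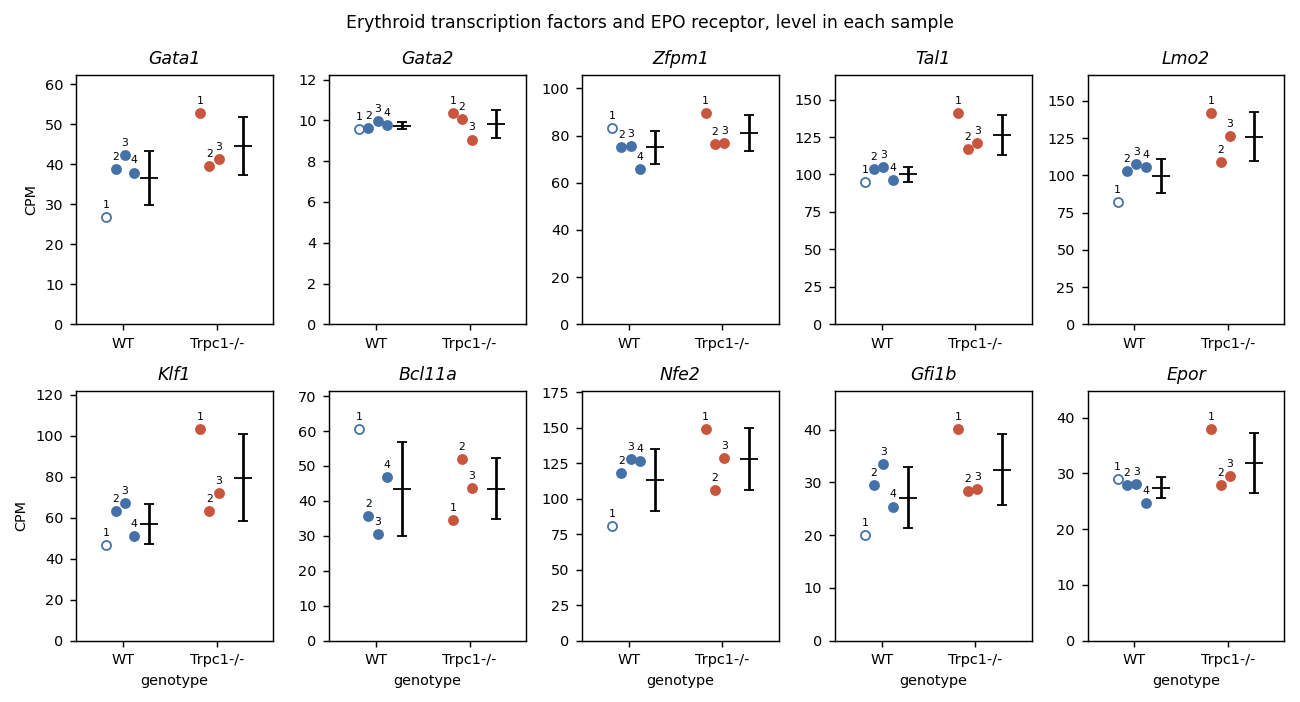
Level of each of the 10 genes in CPM (vertical axis, from 0) in WT and *Trpc1*-/- samples, with replicate numbers beside the points, WT replicate 1 open, and bars at the mean ± SD. *Trpc1*-/- replicate 1 is the highest of the 7 samples for 9 of the 10 genes, and *Tal1* and *Lmo2* do not overlap between the genotypes.

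Several of the proteins, such as GATA1 and KLF1, bind DNA at known motifs, and the promoters of the 10 genes were searched for those motifs. In the RefSeq promoter table (GRCm38.p6), 8 of the 10 genes were found, with 10 windows of 300 bases that run from 250 bases before to 50 after the start. *Nfe2* and *Lmo2* had no entry. The GATA motif was searched on both strands as AGATAA, with T also taken as its first letter and G as its last, and was found in 4 of the 10 windows and in 29.8% of all 32851 windows. The KLF motif, CCNCNCCCN, was found in 8 of 10 windows (49.4% of all), the E-box, CANNTG, in 7 of 10 (72.3%), and the NF-E2 core, TGAGTCA, in 0 of 10 (5.20%), each on both strands. Matches of the KLF motif can overlap one another. A match is only a run of letters, and binding was not measured. The 250 bases before the start are shown for the 4 windows with a GATA match, which is in capitals, and stem from *Klf1* (chr8:84901732-84901981, plus strand), *Tal1* (chr4:115056176-115056425, plus strand), *Gfi1b* (chr2:28621983-28622232, minus strand), and *Epor* (chr9:21963577-21963826, minus strand). They read 5′ to 3′ along the strand of the gene.
Klf1: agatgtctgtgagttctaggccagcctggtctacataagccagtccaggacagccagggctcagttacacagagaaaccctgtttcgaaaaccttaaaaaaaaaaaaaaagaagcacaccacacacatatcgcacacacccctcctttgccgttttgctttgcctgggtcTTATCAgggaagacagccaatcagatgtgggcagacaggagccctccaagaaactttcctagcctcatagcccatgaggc
Tal1: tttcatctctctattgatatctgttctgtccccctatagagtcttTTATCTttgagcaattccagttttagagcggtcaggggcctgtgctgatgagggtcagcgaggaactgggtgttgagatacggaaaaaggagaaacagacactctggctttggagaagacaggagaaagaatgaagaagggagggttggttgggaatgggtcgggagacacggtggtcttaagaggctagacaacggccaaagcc
Gfi1b: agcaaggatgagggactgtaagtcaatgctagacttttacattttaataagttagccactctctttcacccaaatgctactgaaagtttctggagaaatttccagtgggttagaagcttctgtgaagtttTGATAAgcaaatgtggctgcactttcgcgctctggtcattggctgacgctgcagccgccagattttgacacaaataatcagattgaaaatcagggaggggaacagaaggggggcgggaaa
Epor: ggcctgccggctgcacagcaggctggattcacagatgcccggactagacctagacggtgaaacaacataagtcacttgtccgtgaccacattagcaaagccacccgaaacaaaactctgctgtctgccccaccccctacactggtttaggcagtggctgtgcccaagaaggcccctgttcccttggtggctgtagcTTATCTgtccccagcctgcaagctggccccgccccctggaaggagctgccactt
The match began 54 bases before the start in *Epor*, 80 in *Klf1*, 120 in *Gfi1b*, and 205 in *Tal1*. These distances are from the RefSeq starts. In *Epor*, on the minus strand, the 250 bases lie at 21963577 and above, whereas the gene ends at 21963506 in GENCODE M21. The other window of *Tal1* and the windows of *Gata1*, *Gata2*, *Zfpm1*, and *Bcl11a* held no GATA match.

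The GATA factors differed in how much they varied between samples. *Gata1* (ENSMUSG00000031162, chromosome X of GRCm38, 7959260 to 7978071), the central regulator of the erythroid lineage, was at 26.8, 38.9, 42.3, and 37.9 CPM in WT replicates 1 to 4 and 52.9, 39.6, and 41.4 CPM in *Trpc1*-/- replicates 1 to 3. WT replicate 1 was the lowest and *Trpc1*-/- replicate 1 the highest, while the other 5 samples lay close together and the genotypes overlapped. Its logFC was 0.29 ± 0.17 (adjusted P = 0.567, edgeR quasi-likelihood), or 0.17 without WT replicate 1, 0.15 without *Trpc1*-/- replicate 1, and 0.15 to 0.37 over the 7 fits that each omit a sample. *Gata2* (ENSMUSG00000015053, chromosome 6 of GRCm38, 88193891 to 88207032), the factor of the progenitors, was at 9.57, 9.63, 9.96, and 9.76 CPM in WT replicates 1 to 4 and 10.4, 10.1, and 9.06 CPM in *Trpc1*-/- replicates 1 to 3. It varied least of the 10 genes, from 9.06 to 10.4 CPM, and WT replicate 1 was among the other samples. The logFC of *Gata2*, 0.015 ± 0.082, was 0.0054 without WT replicate 1, −0.026 without *Trpc1*-/- replicate 1, and −0.0079 without *Trpc1*-/- replicate 2, with 0.070 without *Trpc1*-/- replicate 3 the highest. *Zfpm1* (ENSMUSG00000049577, chromosome 8 of GRCm38, 122282141 to 122337251), the cofactor, was at 83.4, 75.1, 75.6, and 65.9 CPM in WT replicates 1 to 4 and 89.7, 76.3, and 76.8 CPM in *Trpc1*-/- replicates 1 to 3. WT replicate 1, the lowest sample for *Gata1*, was the second highest for *Zfpm1*, and the genotypes overlapped (logFC 0.11 ± 0.10). Its logFC was 0.030 without *Trpc1*-/- replicate 1, 0.053 without WT replicate 4, and 0.16 without WT replicate 1. The ratio of *Gata1* to *Gata2* within a library was 2.80, 4.04, 4.25, and 3.89 in WT and 5.10, 3.94, and 4.57 in *Trpc1*-/- samples. The lowest ratio was that of WT replicate 1, and the genotypes overlapped.

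*Tal1* and *Lmo2*, whose proteins are partners in a complex, were the genes that separated the genotypes. *Tal1* (ENSMUSG00000028717, chromosome 4 of GRCm38, 115056426 to 115071755), a basic helix-loop-helix factor, was at 94.9, 104, 105, and 96.5 CPM in WT replicates 1 to 4 and 141, 117, and 121 CPM in *Trpc1*-/- replicates 1 to 3. All 3 *Trpc1*-/- samples were above all 4 WT samples, and WT replicate 1 was close to WT replicate 4. The mean was 100.04 ± 5.13 CPM over WT samples (SD, n = 4) and 126 ± 13.1 CPM over *Trpc1*-/- samples (SD, n = 3). The logFC was 0.34 ± 0.093, with an unadjusted P of 0.00710 and an adjusted P of 0.396 (edgeR quasi-likelihood) or 0.0412 (DESeq2). Leaving out each sample in turn gave logFC values of 0.25 to 0.38, with 0.31 without WT replicate 1. The adjusted P of DESeq2 was then 0.0218 without WT replicate 1 and 0.0288 without *Trpc1*-/- replicate 2, but the call was lost without WT replicates 2, 3, or 4 (0.201, 0.101, and 0.144) and without *Trpc1*-/- replicates 1 or 3 (0.258 and 0.271).

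*Lmo2* (ENSMUSG00000032698, chromosome 2 of GRCm38, 103957986 to 103981878), which encodes the adaptor of the complex, was at 82.4, 103, 108, and 106 CPM in WT replicates 1 to 4 and 142, 109, and 126 CPM in *Trpc1*-/- replicates 1 to 3. The lowest *Trpc1*-/- sample was just above the highest WT sample, and with counts scaled to the total alone, without TMM factors, *Lmo2* overlapped between the genotypes whereas *Tal1* did not. Its logFC was 0.34 ± 0.13 (adjusted P = 0.469, edgeR quasi-likelihood), or 0.25 without WT replicate 1, its lowest sample, and 0.24 to 0.42 over the 7 fits that each omit a sample. The ratio of *Lmo2* to *Tal1* was 0.994 ± 0.0945 over WT samples (SD, n = 4) and 0.995 ± 0.0576 over *Trpc1*-/- samples (SD, n = 3).

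*Klf1* and *Bcl11a*, which act on the globin genes, differed in their order of samples. *Klf1* (ENSMUSG00000054191, chromosome 8 of GRCm38, 84901928 to 84905291) was at 46.5, 63.4, 67.0, and 51.0 CPM in WT replicates 1 to 4 and 103, 63.2, and 72.1 CPM in *Trpc1*-/- replicates 1 to 3. *Trpc1*-/- replicate 1 was far above the rest, *Trpc1*-/- replicate 2 lay just below WT replicates 2 and 3, and the genotypes overlapped. The logFC was 0.48 ± 0.20, the largest of the 10 genes (adjusted P = 0.483, edgeR quasi-likelihood), and was 0.25 without *Trpc1*-/- replicate 1, 0.39 without WT replicate 1, and 0.25 to 0.62 over the 7 fits that each omit a sample. *Bcl11a* (ENSMUSG00000000861, chromosome 11 of GRCm38, 24078056 to 24174123) was at 60.6, 35.6, 30.5, and 46.8 CPM in WT replicates 1 to 4 and 34.5, 51.998, and 43.8 CPM in *Trpc1*-/- replicates 1 to 3. Its highest sample was WT replicate 1, the lowest sample for 6 of the other genes, and *Trpc1*-/- replicate 1 was below *Trpc1*-/- replicates 2 and 3. The logFC was 0.0038 ± 0.24, and it took either sign when samples were left out in turn, being lowest when *Trpc1*-/- replicate 2 was omitted, at −0.15, and highest, at 0.21, when WT replicate 1 was.

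*Nfe2* and *Gfi1b*, used by megakaryocytes as well, overlapped between the genotypes. *Nfe2* (ENSMUSG00000058794, chromosome 15 of GRCm38, 103248212 to 103258403), the large subunit of NF-E2, was at 80.5, 117.98, 128, and 126 CPM in WT replicates 1 to 4 and 149, 106, and 128 CPM in *Trpc1*-/- replicates 1 to 3. WT replicate 1 was the lowest sample, and *Trpc1*-/- replicate 2 was below 3 of the 4 WT samples. Its logFC was 0.18 ± 0.18, or 0.043 without WT replicate 1, 0.053 without *Trpc1*-/- replicate 1, and 0.29 without *Trpc1*-/- replicate 2. *Gfi1b* (ENSMUSG00000026815, chromosome 2 of GRCm38, 28609450 to 28621982), which encodes a zinc finger repressor, was at 19.96, 29.4, 33.5, and 25.4 CPM in WT replicates 1 to 4 and 40.1, 28.3, and 28.7 CPM in *Trpc1*-/- replicates 1 to 3. WT replicate 1 was again the lowest and *Trpc1*-/- replicate 1 the highest, with a logFC of 0.26 ± 0.19. This logFC was 0.074 without *Trpc1*-/- replicate 1, 0.14 without WT replicate 1, and at most 0.38 with another sample omitted. The adjusted P (edgeR quasi-likelihood) was 0.728 for *Nfe2* and 0.639 for *Gfi1b*.

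*Epor* (ENSMUSG00000006235, chromosome 9 of GRCm38, 21958897 to 21963506), the receptor, was at 28.9, 27.9, 28.1, and 24.7 CPM in WT replicates 1 to 4 and 37.99, 27.98, and 29.5 CPM in *Trpc1*-/- replicates 1 to 3. *Trpc1*-/- replicate 1 was the highest sample, the other 6 lay between 24.7 and 29.5 CPM, WT replicate 1 among them, and the genotypes overlapped. Its logFC was 0.22 ± 0.12 (adjusted P = 0.545, edgeR quasi-likelihood), or 0.070 without *Trpc1*-/- replicate 1, 0.24 without WT replicate 1, and 0.070 to 0.30 over the 7 fits that each omit a sample.

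Across the 10 genes, 1 sample of each genotype stood out. *Trpc1*-/- replicate 1 was the highest sample for 9 genes (3072 of the 16429 tested genes), and WT replicate 1 was the lowest for 6 (6243 of the 16429 tested genes). *Trpc1*-/- replicate 1 also had the lowest sums of chondrocyte and of osteoblast markers. *Trpc1*-/- replicate 2, whose sums were within the WT range, had *Tal1*, *Lmo2*, and, by little, *Gata2* above all WT samples. Its *Gata1*, *Klf1*, and *Nfe2* were among the WT samples. The part of tissue composition in these levels was not tested.

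**Figure D2:**
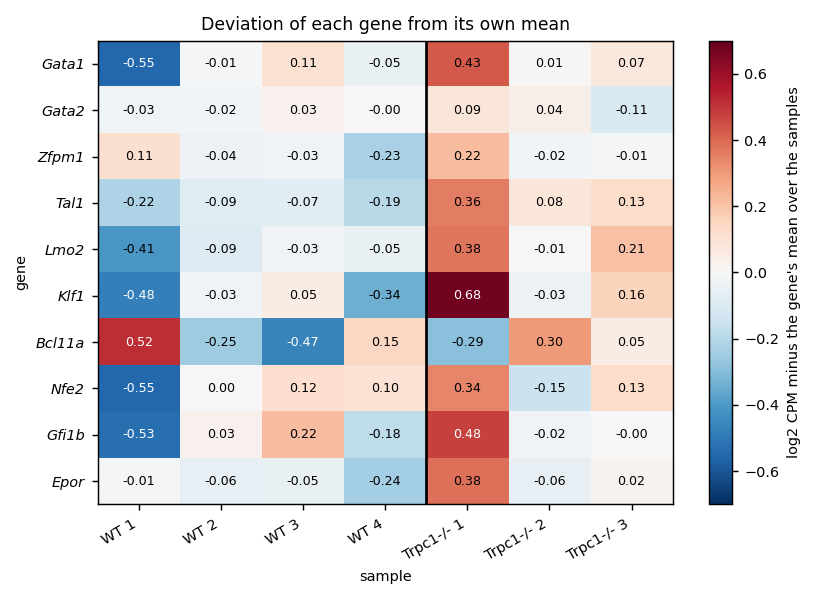
Deviation of the log2 CPM of each gene (vertical axis) from its own mean over the 7 samples (horizontal axis, WT left of the line). *Gata1*, *Klf1*, *Nfe2*, and *Gfi1b* are at −0.48 or lower in WT replicate 1 and highest in *Trpc1*-/- replicate 1, *Gata2* stays near 0, and *Bcl11a* is highest in WT replicate 1.

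Likeness of pattern was measured as the root mean square difference between the log2 CPM of a pair of genes over the 7 samples, each centered on its own mean, so that smaller values are more alike. *Gata1* was nearest to *Gfi1b* (0.0765) and *Nfe2* (0.0917), *Epor* to *Zfpm1* (0.0806), and *Tal1* to *Lmo2* (0.102) among the 10 genes, whereas *Klf1* and *Bcl11a* were farthest apart (0.610). Over all tested genes, the 5 nearest to *Klf1* were *Hemgn*, *Prdx2-ps1*, *Rhd*, *Ccne2*, and *Gm16793* (0.0732 to 0.109). *Hemgn* encodes a nuclear protein of blood cell precursors, and *Rhd* a blood group protein. Nearest to *Epor* were *Kcnn4*, *Slc43a1*, *Add2*, *Art4*, and *Net1* (0.0383 to 0.0640), of which *Kcnn4* encodes the calcium-activated potassium channel of the red cell and *Add2* a subunit of adducin in its membrane skeleton. The 5 nearest to *Gata1* were *Hspa5*, *Impdh2-ps*, *Ssb*, *Bloc1s4*, and *4930579G24Rik* (0.0284 to 0.0427), and those nearest to *Gata2* were *Rest*, *Tyw1*, *Tstd2*, *Prkci*, and *Srxn1* (0.0261 to 0.0348), and none of these 10 was on a list used here. *Prdx2-ps1* and *Impdh2-ps* are pseudogenes, whose reads may come from their parent genes.

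Levels of different genes were compared in CPM per kilobase of annotated exon. Over the WT samples (mean ± SD, n = 4), *Lmo2* (46.0 ± 5.37), *Nfe2* (37.8 ± 7.41), and *Klf1* (37.2 ± 6.403) were highest and overlapped one another. The next were *Tal1* (22.8 ± 1.17) and *Zfpm1* (21.4 ± 2.04), which overlapped, and then *Gata1* (15.0 ± 2.76), *Gfi1b* (14.8 ± 3.15), and *Epor* (13.8 ± 0.938), which also did. Each of these 3 groups of genes was above the next in all 4 WT samples. *Bcl11a* (3.29 ± 1.01) and *Gata2* (1.80 ± 0.0323) were lowest, without overlap between them or with the other genes. In *Trpc1*-/- samples, *Klf1* (52.01 CPM per kilobase) came before *Nfe2* (42.8 CPM per kilobase), with overlap, and the order was otherwise the same.

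**Figure D3:**
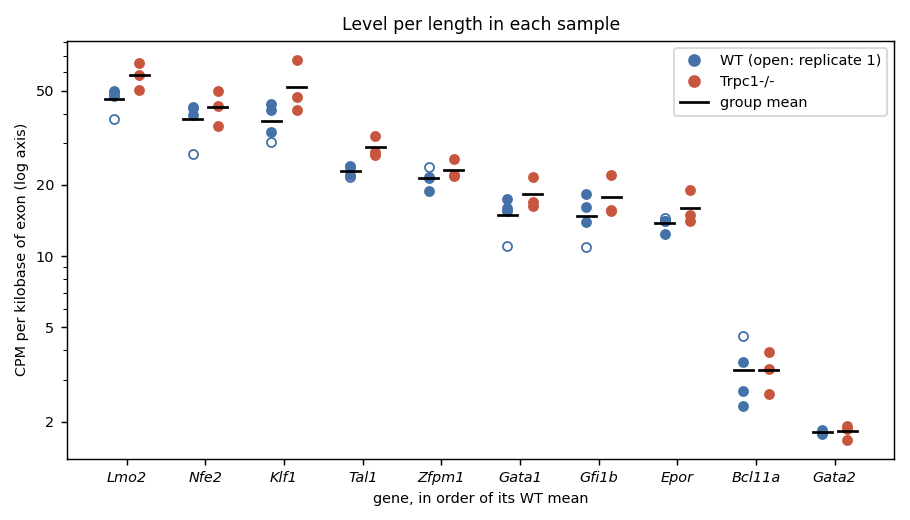
Level in CPM per kilobase of exon (vertical axis, log scale) of each gene in each sample, WT and *Trpc1*-/-, in order of the WT mean, with lines at the group means. *Lmo2*, *Nfe2*, and *Klf1* are the highest, and *Bcl11a* and *Gata2* the lowest, in both genotypes.

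Factors that work with these regulators were also measured. Of 22 partners and cofactors, 14 had a logFC above 0, or 16 without WT replicate 1, and 8 below, with a median of 0.074, or 0.021 without WT replicate 1 and 0.033 without *Trpc1*-/- replicate 1. At an unadjusted P under 0.05 there were 2, *E2f2* and *E2f4*, a share of the 22 close to the 10.0% of all tested genes, edgeR called 0, and DESeq2 called 1. *E2f2*, which encodes a cell cycle factor needed in red cell maturation, was at 169, 169, 164, and 158 CPM in WT and 193, 192, and 203 CPM in *Trpc1*-/- samples, without overlap (logFC 0.25 ± 0.074; adjusted P = 0.408, edgeR quasi-likelihood, and 0.00307, DESeq2). The logFC of *E2f4* was 0.20 ± 0.074. The count of 2 was 5 without WT replicate 1, 1 without WT replicates 2 or 4 or *Trpc1*-/- replicate 1, and 0 without *Trpc1*-/- replicate 3. The single DESeq2 call became 2 without WT replicate 1 and was lost without WT replicates 2 or 3 or *Trpc1*-/- replicates 1 or 3. In these fits DESeq2 called 892, 62, 134, 84, and 37 of all tested genes, in that order, compared with 294 with all 7 samples. Further members of the complex of TAL1 had logFC values of −0.0081 ± 0.064 for *Ldb1*, 0.12 ± 0.072 for *Tcf3*, and −0.013 ± 0.074 for *Tcf12*. *Mafk*, which encodes a small partner of NFE2, was at 0.21 ± 0.095, and *Spi1*, which encodes PU.1, an antagonist of GATA1, at 0.082 ± 0.28.

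Genes of EPO signaling lay on both sides of 0. Of 18 genes, 17 were tested, 8 with a logFC above 0 and 9 below, with a median of −0.051. Without WT replicate 1, 6 were above 0. The median was −0.018 without WT replicate 1, −0.0064 without *Trpc1*-/- replicate 3, and 0.028 with no filter on low counts, where all 18 genes were fitted. *Epo* itself, made in kidney and liver, had at most 1 count in any sample, under the floor of 3 counts. At an unadjusted P under 0.05 there were 3 of 17, compared with 10.0% of all tested genes. They were *Pim1*, *Bcl2l1*, and *Cish*, of which edgeR called 0 and DESeq2 called *Pim1*. *Pim1*, which encodes a survival kinase induced by STAT5, was at 53.8, 55.3, 56.1, and 52.02 CPM in WT and 70.9, 63.1, and 69.2 CPM in *Trpc1*-/- samples. The genotypes did not overlap (logFC 0.32 ± 0.070; adjusted P = 0.395, edgeR quasi-likelihood, and 0.00407, DESeq2). *Bcl2l1*, which encodes the survival factor BCL-XL, had a logFC of 0.26 ± 0.080 and no overlap. *Cish*, a feedback inhibitor that STAT5 also induces, was at 4.51, 3.00, 2.45, and 3.56 CPM in WT and 1.45, 2.32, and 2.29 CPM in *Trpc1*-/- samples. Each *Trpc1*-/- sample was below each WT sample (logFC −0.74 ± 0.27). *Jak2*, *Stat5a*, and *Stat5b* had logFC values of 0.11 ± 0.10, −0.051 ± 0.062, and −0.093 ± 0.067. The DESeq2 count in this list was 2 without WT replicate 1 and without *Trpc1*-/- replicate 2, and 0 without WT replicate 2 and without *Trpc1*-/- replicates 1 or 3. Its count over all tested genes was 892, 371, 62, 84, and 37 in these fits, in that order, and 294 with all 7 samples.

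Genes of the red cell program itself, from 4 lists of heme synthesis, globins, red cell membrane, and late enzymes, lay to 1 side. Of 44 genes, 43 were tested, as *Ahsp*, which encodes the chaperone of alpha-globin, was not analysed here. All 43 had a logFC above 0 (42 or 43 with each sample left out in turn, and 39 with WT replicates 1 and 2 as the only WT samples), with a median of 0.35, and 30 had an unadjusted P under 0.05, or 40 without WT replicate 1, compared with 10.0% of all tested genes in the fit of all 7 samples. The quasi-likelihood test of edgeR called 0 of them, limma-voom called 0, and DESeq2 called 13, compared with 1.79% of all tested genes. These lists were chosen with earlier results of these data known, so the excess over all tested genes is not independent of that choice. Some of their genes, such as *Tent5c* and *Fech*, are among the top genes that the study itself reported from these data. At an unadjusted P under 0.05 were 8 of 11 genes of heme synthesis, or 10 without WT replicate 1 (median logFC 0.35), 4 of 4 globins (0.76), 9 of 16 membrane genes (0.29), and 9 of 12 late genes (0.40). Without WT replicate 1, edgeR called 1, *Tent5c*, and DESeq2 called 34, and 15 membrane genes were under 0.05. Without this sample, edgeR called 52 and DESeq2 892 of all tested genes, compared with 0 and 294 with all 7 samples. DESeq2 called 5 without WT replicate 2, 8 without WT replicate 4, 22 without *Trpc1*-/- replicate 2, and 4 without *Trpc1*-/- replicate 1 or 3. The counts over all tested genes were 62, 281, 371, 84, and 37 in these fits, in that order. Without *Trpc1*-/- replicate 1, 5 membrane genes were under 0.05, and without *Trpc1*-/- replicate 3, 0 globins were. With the newer estimate of the quasi-dispersion in edgeR, 1 of the 4 globins and 28 of the 43 genes were under 0.05.

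*Fech*, which encodes the last enzyme of heme synthesis, was at 330.3, 331, 336, and 326 CPM in WT and 454, 398, and 449 CPM in *Trpc1*-/- samples, without overlap (logFC 0.39 ± 0.087; adjusted P = 0.395, edgeR quasi-likelihood, and 4.22e-05, DESeq2). *Rhag*, which encodes the Rh-associated glycoprotein, had a logFC of 0.43 ± 0.081, *Epb41*, for protein 4.1 of the membrane skeleton, 0.45 ± 0.093, and *Bpgm*, for the enzyme that makes bisphosphoglycerate, which lowers the oxygen affinity of hemoglobin, 0.71 ± 0.16. The beta-globin *Hbb-bt* had a logFC of 0.77 ± 0.24. *Hba-a1* and *Hba-a2*, and also *Hbb-bs* and *Hbb-bt*, are near-identical copies between which the counting may have split reads, so that single globin values are uncertain. Of the 43 genes, 11 had a logFC above that of *Klf1*.

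**Figure D4:**
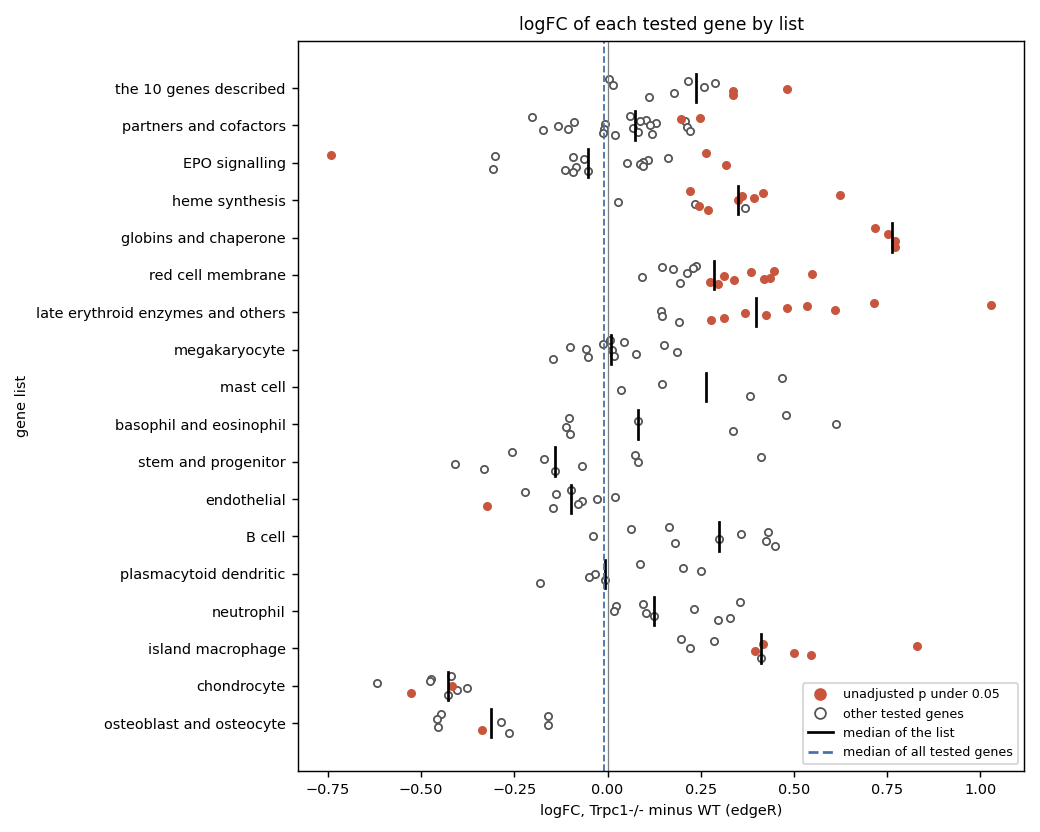
logFC of *Trpc1*-/- over WT (horizontal axis) for each tested gene of the 10 described and of the other 17 lists, filled where the unadjusted P was under 0.05, with lines at the list medians and a dashed line at the median of all tested genes. The 4 lists of the red cell program lie to the right of 0, and the chondrocyte and osteoblast lists lie to the left.

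Markers of the macrophages at the center of erythroblastic islands, in which red cells mature, lay with the red cell genes. Led by *Vcam1*, they summed to 586, 823, 862, and 792 CPM in WT and 1068, 928, and 1129 CPM in *Trpc1*-/- samples, and each *Trpc1*-/- sample was above each WT sample. Of 9 genes, 9 had a logFC above 0, 5 had an unadjusted P under 0.05, or 7 without WT replicate 1, edgeR called 0, and DESeq2 called 3. With all 7 samples, 10.0% of all tested genes were under an unadjusted P of 0.05, and DESeq2 called 1.79%. The DESeq2 count was 5 without WT replicate 1, 1 without WT replicate 2, 1 without *Trpc1*-/- replicate 1, and 0 without *Trpc1*-/- replicate 3, where 3 genes were under an unadjusted P of 0.05. Of all tested genes, DESeq2 called 892, 62, 84, and 37 in these fits, in that order, compared with 294 with all 7 samples. *Siglec1*, which encodes a sialic acid receptor, had a logFC of 0.39 ± 0.076, *Hmox1*, for the enzyme that breaks down heme, 0.83 ± 0.21, and *Slc40a1*, for the iron exporter ferroportin, 0.50 ± 0.13. Their adjusted P values (edgeR quasi-likelihood) were 0.381, 0.395, and 0.395.

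Several of the 10 genes are also active in other cells, whose markers were measured beside them. Megakaryocyte markers, whose cells share *Gata1*, *Nfe2*, and *Gfi1b*, summed to 839, 1196, 1265, and 1128 CPM in WT and 1234, 1131, and 949.5 CPM in *Trpc1*-/- samples, with *Ppbp* the most abundant. Of these 12 genes, 7 had a logFC above 0, or 5 with upper quartile normalization, 2 without WT replicate 1, 4 without *Trpc1*-/- replicate 1, and 11 without *Trpc1*-/- replicate 3. Mast cell markers, whose cells share *Gata2*, summed to 49.5, 91.9, 92.2, and 97.7 CPM in WT and 104, 73.5, and 92.0 CPM in *Trpc1*-/- samples, with *Hdc*, which other granulocytes also express, the most abundant. The mast cell proteases *Cma1*, *Mcpt4*, and *Tpsb2* were each under 1 CPM in every sample, *Tpsab1* had at most 4 counts, and the 4 other genes had a logFC above 0 (2 of 4 without WT replicate 1 and 2 of 4 without *Trpc1*-/- replicate 1). The mean CPM of *Cma1*, *Mcpt4*, and *Tpsb2* was 0.553, 0.574, and 0.474 in WT and 0.453, 0.457, and 0.303 in *Trpc1*-/- samples. With no filter on low counts, 5 of 8 genes were above 0 (median logFC 0.107). With the filterByExpr filter of edgeR, 4 of 7 were (median 0.0463), compared with a median of 0.264 over the 4 genes. Basophil and eosinophil markers, led by *Prg2*, summed to 93.0, 861, 993, and 802 CPM in WT and 1008, 385, and 616 CPM in *Trpc1*-/- samples, with WT replicate 1 far below the others, and 4 of 7 had a logFC above 0, with a median of 0.081. This count was 3 without WT replicate 1, with a median of −0.24, and 3 without *Trpc1*-/- replicate 1, with a median of −0.049, but 5 without WT replicate 4, 6 without WT replicate 2, and 7 without WT replicate 3 or *Trpc1*-/- replicate 2. With limma-voom and all 7 samples, 6 of 7 were above 0, with a median of 0.479. In these 3 lists, edgeR and DESeq2 called 0 genes, and in edgeR 0 were under an unadjusted P of 0.05, or 1 of the basophil and eosinophil list without WT replicate 1. Neutrophil markers had a logFC above 0 in 9 of 9 genes, 0 of them under 0.05 and 0 called by edgeR or DESeq2, but in 3 of 9 without WT replicate 1 and in 6 of 9 without *Trpc1*-/- replicate 1.

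Stem and progenitor markers, whose cells share *Gata2*, *Tal1*, and *Lmo2*, summed to 145, 152, 152, and 139 CPM in WT and 138, 136, and 138 CPM in *Trpc1*-/- samples, with *Cd34* the most abundant. Each *Trpc1*-/- sum was below each WT sum, by little, as the highest of the former was 138.386 and the lowest of the latter 138.754 CPM. Taken singly, 0 of the 9 genes separated the genotypes. *Cd34*, which weighs most in the sum, was at 56.9, 65.0, 64.9, and 48.4 CPM in WT and 49.0, 48.3, and 50.5 CPM in *Trpc1*-/- samples. Of these 9 genes, 3 had a logFC above 0 and 0 were under an unadjusted P of 0.05, or 2 without WT replicate 1 and 2 without WT replicate 4, and edgeR and DESeq2 called 0, except that DESeq2 called 1 without WT replicate 4. Endothelial markers, whose cells share the same factors, summed to 456, 431, 427, and 437 CPM in WT and 409.9, 431, and 384 CPM in *Trpc1*-/- samples, with *Vwf*, which is also a megakaryocyte marker, the most abundant. Of these 9 genes, 1 had a logFC above 0 and 8 below, and the count above 0 was 2 without WT replicate 3 and 0 without *Trpc1*-/- replicate 2. *Tie1*, a receptor of endothelial cells, was under an unadjusted P of 0.05 (logFC −0.32 ± 0.093), as were 3 genes without WT replicate 1 and 2 without *Trpc1*-/- replicate 2, and edgeR and DESeq2 called 0.

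*Bcl11a* is also needed by B cells and plasmacytoid dendritic cells. The 9 B cell markers, led by *Ebf1*, summed to 276, 316, 326, and 290.0 CPM in WT and 314, 384, and 346 CPM in *Trpc1*-/- samples. WT replicate 1, the sample with the highest *Bcl11a*, had the lowest sum but the highest *Ebf1*, and *Trpc1*-/- replicate 2, next in *Bcl11a*, had the highest sum. Of these genes, 8 had a logFC above 0, and 5 did not overlap between the genotypes and were higher in *Trpc1*-/- samples, as were 7.15% of all tested genes. At an unadjusted P under 0.05 there were 0 in edgeR and 3 in DESeq2, and 0 were called by either. Without WT replicate 1 or 3, 3 were under 0.05 in edgeR, and 1 was without WT replicate 2 or *Trpc1*-/- replicate 1. The 7 plasmacytoid dendritic cell markers were led by *Tcf4*. They summed to 298, 292, 289.6, and 272 CPM in WT and 256, 287, and 265 CPM in *Trpc1*-/- samples. The sum was highest in WT replicate 1, where *Tcf4* was at 197 CPM, compared with 126 to 159 CPM elsewhere. *Cox6a2* was also highest there, but *Siglech*, *Ccr9*, *Bst2*, *Irf8*, and *Klk1* were each lowest there. The logFC was above 0 for 3 genes. This count was 4 in DESeq2 and in limma-voom. In edgeR it was 2 without WT replicate 1, WT replicate 4, or *Trpc1*-/- replicate 3, 4 without *Trpc1*-/- replicate 1 or 2, 5 without WT replicate 2, and 6 without WT replicate 3, and 0 genes were under 0.05 or called by edgeR or DESeq2.

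The cartilage and bone markers lay on the other side of 0 from the red cell genes. Of the 9 chondrocyte markers, 9 had a logFC below 0 (median −0.43, or −0.65 without *Trpc1*-/- replicate 2), and 2, *Comp* and *Prg4*, were under an unadjusted P of 0.05, compared with 10.0% of all tested genes. This count was 6 without WT replicate 1, 4 without *Trpc1*-/- replicate 2, 1 without WT replicates 3 or 4 or *Trpc1*-/- replicate 1, and 0 without WT replicate 2 or *Trpc1*-/- replicate 3. The 10.0% is from the fit of all 7 samples, and the share in the other fits is not given here. Of the 8 osteoblast and osteocyte markers, 8 had a logFC below 0 (median −0.31, or −0.52 without *Trpc1*-/- replicate 2), or 7 without WT replicate 3, and *Phex* was under 0.05. Here the count was 3 without WT replicate 1, 4 without *Trpc1*-/- replicate 2, and 0 without any of the other 5 samples. In both lists edgeR and DESeq2 called 0. Without WT replicate 1, edgeR called 1 bone marker, and DESeq2 called 4 chondrocyte and 3 bone markers. DESeq2 also called 3 of each without *Trpc1*-/- replicate 2, and 1 chondrocyte marker with WT replicates 1 and 2 as the only WT samples. Of all tested genes, edgeR called 52 without WT replicate 1, compared with 0 with all 7 samples. DESeq2 called 892 without WT replicate 1, 371 without *Trpc1*-/- replicate 2, and 181 in the last of these fits, compared with 294. In all of the lists, limma-voom called 0. The part of these cell types in the levels of the 10 genes was not tested.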

How the data were processed

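RNA-Seq was performed on 7 samples, with ribosomal RNA depleted and stranded libraries made from total RNA. Per the submitters' processing notes, reads were handled with bcl2fastq, Cutadapt 2.5, HISAT2 2.1.0, and StringTie 2.0.3 on GRCm38. The values that the authors deposited are estimated counts of each gene, derived from StringTie coverage and not normalized. The counts were whole numbers already, so rounding changed none. All 7 columns were used. The number of samples of each genotype differs between the labels and the methods of the study, and the labels were followed.

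The filter kept genes above 1 CPM in 2 or more samples. EdgeR 4.0.16 (R 4.3.3) then compared the genotypes, the only term in the model, by its quasi-likelihood test after TMM scaling, and P values were adjusted over the 16429 genes by the Benjamini-Hochberg method. The SE of a logFC was taken as its size divided by the square root of the F statistic of that test. The common dispersion was 0.0424. Tests with DESeq2 1.42.0 and limma 3.58.1 (voom), the newer estimate of the quasi-dispersion in edgeR, 2 other normalizations, 3 other filters, the replicate block, and left-out samples were the alternatives. All fits were first tested on simulated data. Exon lengths, as the union over transcripts, and positions came from GENCODE M21. Totals ran from 52142451 to 118254070 counts, and the floor of 3 counts covers counting error only. Samples were labelled as biological replicates.

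The genes and the lists were chosen with earlier results of these data known. An excess of any list over the share of all tested genes is therefore not independent of that choice. The genes named were the 10 genes, *Trpc1*, list genes in order of unadjusted P and then mean CPM or by role, and the 5 genes nearest in pattern to *Gata1*, *Gata2*, *Klf1*, and *Epor*. Those named by role, and the ratios between genes, were chosen after their values were seen. No protein sequences were used here.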

Additional observations from a re-analysis of the deposited data

Results flagged for a closer look

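Among the 4 WT samples, 5 of 41 values examined had 1 sample far from the other 3 by Dixon's test. Chance gives about 1 in 20 for independent values, a rate that does not hold here, since 4 of the 5 are ratios to *Gata1*, which share their denominator, and the ratios were chosen after values had been seen. The *Trpc1*-/- group, with 3 samples, was not examined. In WT replicate 1, the ratio of *Epor* to *Gata1* was 1.08 (0.651 to 0.717 in the other WT samples), that of *Zfpm1* to *Gata1* 3.11 (1.74 to 1.93), and that of *Itga2b* to *Gata1* 4.47 (3.41 to 3.49). The sum of the mast cell markers was 49.5 CPM there, compared with 91.9 to 97.7 CPM. In WT replicate 4, the ratio of *Nfe2* to *Gata1* was 3.33, compared with 3.00 to 3.03. The CPM of none of the 10 genes was set apart in this way.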

How the results depend on the processing

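EdgeR's count of all genes called, 0, was 294 with DESeq2 and 1 with limma-voom, and from 0 to 52 with each sample left out, the 52 being without WT replicate 1. Its count over the 10 genes, 0, was 1 with DESeq2 and 0 with limma-voom and in the other fits of edgeR. The newer quasi-dispersion left both at 0 and left the 3 genes with an unadjusted P under 0.05 at 3. The 3 genes with an unadjusted P under 0.05 became 1 to 3 with each sample left out, with 1 without *Trpc1*-/- replicate 1 and 1 without *Trpc1*-/- replicate 3. For these genes and for the lists, the share of all tested genes under 0.05 is given only for the fit of all 7 samples. The 2 genes that did not overlap became 2 to 5, with 5 without *Trpc1*-/- replicate 2, and 1 when scaled to the total count alone, which was chosen after seeing the data. The median logFC lay between 0.11 and 0.35 in the alternatives. The logFC of *Bcl11a* was −0.010 with upper quartile normalization, −0.15 with WT replicates 1 and 2 as the only WT samples, whose libraries are numbered close to those of the *Trpc1*-/- samples, and from −0.15 to 0.21 with each sample left out, and that of *Gata2* from −0.026 to 0.070. The cause was not tested. Fits of DESeq2 with fewer samples, and the counts of the gene lists in all alternative fits, were also chosen after seeing the data. The DESeq2 fits called 37 to 892 genes with each sample left out, the 37 without *Trpc1*-/- replicate 3 and the 892 without WT replicate 1, and 181 with WT replicates 1 and 2 as the only WT samples. Of the 10 genes, they called 0 to 1 and 0.

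Same-numbered samples come from different mice, and their deviations from the group means had correlations across genes of −0.452, −0.341, and −0.00439. Whether these samples share more than their number cannot be told from such correlations. With the replicate block, which leaves out WT replicate 4, edgeR called 0 genes, 0 of the 10 had an unadjusted P under 0.05, and DESeq2 called 54 genes and 0 of the 10. Of the 43 red cell genes, 12 then had an unadjusted P under 0.05 in edgeR, 1 of the 4 globins among them, and DESeq2 called 3. At these depths each of the 10 genes had at least 454 counts per sample. With these estimated counts taken as reads, counting error alone gives *Gata2* a CV of 3.64% over WT samples, above its measured CV of 1.79%, whereas over *Trpc1*-/- samples its measured CV of 6.98% was above the 3.16% from counting. The measured CV of the other 9 genes was above their counting error in both genotypes.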

Other observations

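Ratios within a library do not depend on its scaling. Of the 12 ratios computed, chosen after values had been seen, 2 had genotypes that did not overlap. The ratio of *Alas2*, which encodes the first enzyme of heme synthesis in red cells, to *Gata1* was 15.1, 14.7, 14.4, and 13.7 in WT replicates 1 to 4 and 16.996, 17.7, and 19.99 in *Trpc1*-/- replicates 1 to 3. WT replicate 1 lay with the other WT samples in this ratio, although both genes were lowest there. The ratio of *Itga2b*, an integrin of megakaryocytes, to *Gata1* was 4.47, 3.49, 3.41, and 3.46 in WT and 2.72, 3.19, and 2.46 in *Trpc1*-/- samples, lower in each of the latter. The ratio of *Slc4a1*, the anion exchanger of the red cell, to *Klf1* was 18.9 ± 2.73 over WT samples (SD, n = 4) and 17.3 ± 2.93 over *Trpc1*-/- samples (SD, n = 3), with overlap. None of these ratios was tested.

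In the GENCODE M21 annotation, 7 of the 10 genes overlap no other gene, and *Zfpm1*, *Lmo2*, and *Bcl11a* overlap 1, 1, and 2 others. Reads were counted by strand, and only the gene that overlaps *Zfpm1* is on the same strand. Each of the overlapping genes was below 0.5 CPM in every sample.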
